A study of Mus musculus with 55 samples.

Results

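Primary neurons from the cortex and hippocampus of CD1 mouse embryos (E16 to E17.5, mixed sex) were kept in culture until 21DIV and stimulated with bicuculline (Bic) alone for 45 min. Bic blocks the chloride current of GABA-A receptors, the main inhibitory receptors of the forebrain, and so lets excitatory synapses drive the network into bursts of firing. The calcium that enters during such bursts signals through kinases to CREB, SRF and related factors that are already in the nucleus. Immediate early genes (IEGs) are transcribed first, without new protein, and many of their products are transcription factors or proteins of the synapse. What follows compares 2 samples with 50 µM Bic for 45 min with 3 basal samples that received no drug, 5 of the 27 samples of the stimuli experiment and of the 55 of the whole series. The members were taken from the sample titles.

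No culture of either group was silenced beforehand, and no 4-aminopyridine was added in this experiment. The other groups set beside them were Bic for 15 min (2 samples), Bic for 180 min (2 samples), 55 mM KCl for 45 min (2 samples), 45 min after withdrawal of 1 µM tetrodotoxin (TTX) that had been present for 48 h (TTXw, 2 samples), and the silenced control of the latter (basal TTX, 4 samples). TTX blocks sodium channels and KCl depolarizes the membrane directly. Libraries of 3′ ends were made by CEL-Seq2, and the deposited counts on genes were 3476123, 2691387 and 2613680 for basal replicates 1, 2 and 5 and 2384138 and 3322157 for Bic replicates 1 and 2. The labels do not say whether the samples of a group came from separate cultures of neurons, so the p-values measure the spread between these samples, which may be technical. The sample descriptions carry a letter of unstated meaning: both Bic samples and basal replicate 5 have B, basal replicates 1 and 2 have A.

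After 45 min of Bic, 896 of 12027 genes tested (7.45%) were differentially expressed (DEG): 541 rose (4.5% of the genes tested) and 355 fell (2.95%). DEG changed by at least 1.5-fold and had an adjusted p under 0.05 (edgeR, quasi-likelihood F test, p-values adjusted by Benjamini-Hochberg). The rises were larger than the falls: 48 rises and 12 falls reached 4-fold, and the median log2 fold change was 0.97 for the rises and -0.88 for the falls, against -0.01 over all genes tested. The 2 Bic samples lay outside the range of the 3 basal samples in 889 of the 896 DEG, while this held for 40.8% of all genes (20.1% with the Bic samples higher). The count of DEG fell to 588 without basal replicate 5, to 585 with the replicate number as a block and to 393 without Bic replicate 2. With basal replicate 5, which has the same letter as the Bic samples, as the only control, 572 genes passed. Of 895 DEG that could be compared, 895 had the same direction there. Replicate 5 is also 1 of the 3 samples of the main control. In DEG without overlap both Bic samples lie on 1 side of it, so the shared direction was largely fixed in advance. With the letter as a covariate 611 genes passed, 355 of them higher with Bic.

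**Figure D1:**
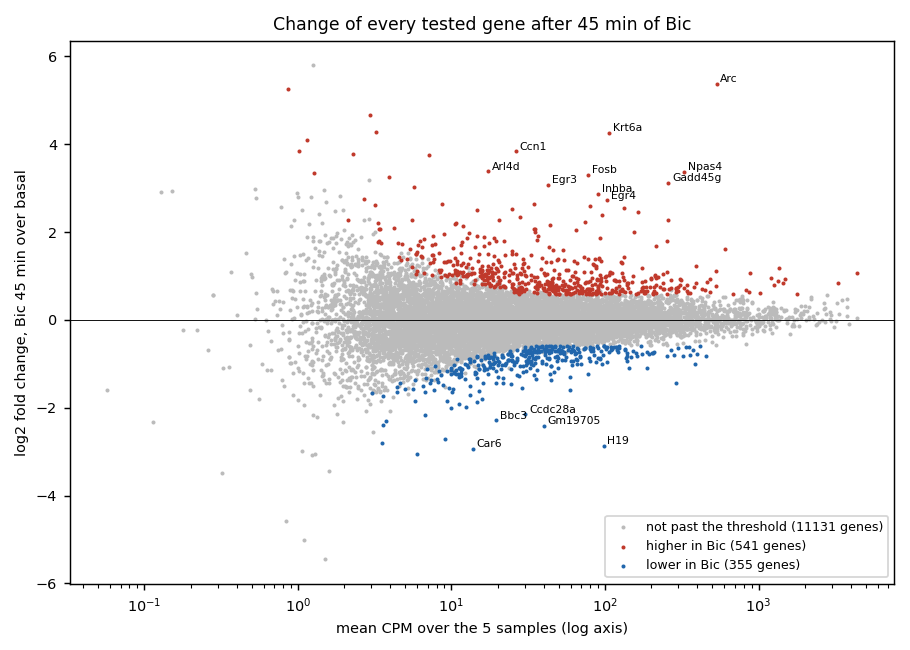
Log2 fold change of each tested gene after 45 min of Bic over basal (vertical axis) against its mean CPM over the 5 samples (log axis). Red points are the 541 genes that rose and blue points the 355 that fell; names mark the largest changes among DEG of at least 10 CPM, from Arc at 5.38 to Car6 at -2.93, and the points left of them with changes as large have fewer counts.

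The promoters of several genes that rose carry the cAMP response element (CRE), the site that CREB binds, or a part of it. The sequences below are the 250 bases before the start of transcription in RefSeq on GRCm38.p6, written 5′ to 3′ on the strand of the gene. They are shown because Arl4d, Btg2 and Dusp1 hold the whole palindrome TGACGTCA and Npas4 and Fos hold its 5-letter part TGACG or CGTCA. Capitals mark these letters, which were searched on both strands, and the whole palindrome contains the part on each strand.
Arl4d, chr11:101665291-101665540, plus strand: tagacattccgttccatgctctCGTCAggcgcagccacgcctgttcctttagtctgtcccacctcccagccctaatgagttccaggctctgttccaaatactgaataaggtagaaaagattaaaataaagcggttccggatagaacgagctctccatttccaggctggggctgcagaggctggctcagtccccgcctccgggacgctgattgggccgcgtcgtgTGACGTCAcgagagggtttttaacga
Btg2, chr1:134079156-134079405, minus strand: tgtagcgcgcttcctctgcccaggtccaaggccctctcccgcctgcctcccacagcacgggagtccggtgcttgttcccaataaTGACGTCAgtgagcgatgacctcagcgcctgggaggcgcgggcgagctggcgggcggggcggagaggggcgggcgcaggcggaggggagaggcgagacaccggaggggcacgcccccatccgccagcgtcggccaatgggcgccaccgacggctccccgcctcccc
Dusp1, chr17:26508473-26508722, minus strand: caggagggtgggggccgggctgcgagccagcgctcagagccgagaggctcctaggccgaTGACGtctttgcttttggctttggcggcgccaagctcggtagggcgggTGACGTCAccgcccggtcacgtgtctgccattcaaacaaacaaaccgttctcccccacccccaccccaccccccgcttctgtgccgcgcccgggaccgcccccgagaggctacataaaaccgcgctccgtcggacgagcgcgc
Npas4, chr19:4989972-4990221, minus strand: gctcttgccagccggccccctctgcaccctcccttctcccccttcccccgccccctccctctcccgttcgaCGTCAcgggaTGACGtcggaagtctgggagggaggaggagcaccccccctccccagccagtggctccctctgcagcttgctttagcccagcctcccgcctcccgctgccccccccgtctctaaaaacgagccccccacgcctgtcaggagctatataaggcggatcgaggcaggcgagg
Fos, chr12:85473640-85473889, plus strand: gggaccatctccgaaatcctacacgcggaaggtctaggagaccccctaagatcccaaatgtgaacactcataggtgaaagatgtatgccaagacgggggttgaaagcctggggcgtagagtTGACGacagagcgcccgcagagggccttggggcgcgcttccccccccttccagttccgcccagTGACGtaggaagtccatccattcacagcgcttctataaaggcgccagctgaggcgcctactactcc
Counted from the start of transcription, the palindrome lies from -26 to -19 in Arl4d, from -166 to -159 in Btg2 and from -143 to -136 in Dusp1.

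Over all promoters of the same length, 1.55% of 32851 hold the whole CRE, and 2.69% of the 12438 promoters of tested genes do. The share was 3.01% of the 565 promoters of genes that rose (420 of the 541 genes have one in the table) and 3.18% of the 346 promoters of genes that fell (283 of 355 genes). The part TGACG or CGTCA was in 22.7% of the promoters of rises, 24.9% of those of falls and 26.7% of those of tested genes. The AP-1 letters TGANTCA were in 5.84%, 4.91% and 4.29% and the CArG box, which SRF binds, in 1.59%, 2.31% and 1.09%. The shares with the CRE or its part were thus no higher in rises than in falls. Of the genes named below, the rises Gadd45g, Inhba and Pim1 had no match. The falls Bbc3, Ccdc28a and Gm19705 held the part TGACG or CGTCA in a promoter. A match of letters is a description of the window and no measure of binding.

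Among DEG with a mean of at least 10 CPM and no overlap of the groups, the largest rise was that of Arc (chr15:74669081-74672570), whose protein acts at the postsynapse in the removal of AMPA receptors. Arc had 25.5, 35.7 and 32.2 CPM (counts per 1000000 counts, TMM-normalized) in the basal samples and 1096 and 1474 CPM in the Bic samples. All Bic values lay above all basal values, a 41.5-fold difference with a log2 fold change of 5.38 ± 0.18 (SE) and an adjusted p of 4.34e-24. Krt6a (chr15:101689928-101694305), a keratin of stressed epithelia, went from 10.9, 16.7 and 11.8 CPM to 129 and 364 CPM, a log2 fold change of 4.25 ± 0.27. The 2 Bic samples of Krt6a differed from each other more than those of Arc did. Of the other keratinocyte markers, Krt1 and Krt10 did not pass the test and the close paralog Krt6b had 0 counts in each of the 5 samples. Ccn1 (chr3:145646971-145649985), a secreted matrix protein and a target of SRF, rose from 3.72, 3.72 and 4.93 CPM to 64.6 and 54.1 CPM (log2 fold change 3.84 ± 0.34).

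Arl4d (chr11:101665541-101667832), a small GTPase, rose from between 1.86 and 4.55 CPM to 35.4 and 40.7 CPM (log2 fold change 3.38 ± 0.32). Npas4 (chr19:4984353-5003439), a transcription factor that responds selectively to calcium entry and shapes inhibitory synapses, had 81.4, 67.4 and 58 CPM in basal and 668 and 766 CPM in Bic samples. Its groups were far apart, with a log2 fold change of 3.37 ± 0.15 and an adjusted p of 9.02e-20. Gadd45g, a stress sensor linked to DNA demethylation, had 61.6, 76.7 and 52.3 CPM in basal and 577 and 527 CPM in Bic samples (3.12 ± 0.18). Inhba, which encodes the activin A subunit, rose from between 19.3 and 36.8 CPM to 159 and 214 CPM (2.87 ± 0.23). Pim1, a serine/threonine kinase, had 6.02, 14.9 and 13.6 CPM in basal and 38 and 100 CPM in Bic samples (2.64 ± 0.36). The other genes among the 12 largest rises were the transcription factors Fosb, Egr3, Egr4 and Junb.

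**Figure D2:**
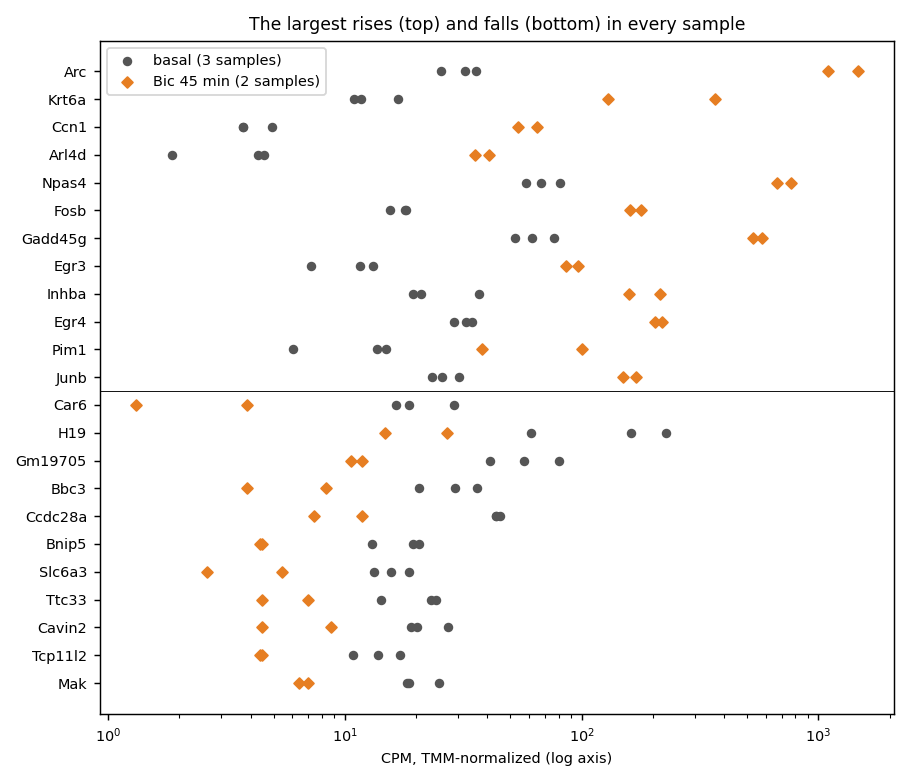
CPM (log axis) of the 12 largest rises and 11 of the 12 largest falls in each of the 5 samples; dots are basal samples and diamonds are Bic samples. In each of these genes both Bic samples lie on the same side of all basal samples, from Arc with 1096 and 1474 CPM against 25.5 to 35.7 CPM down to Mak with 6.98 and 6.40 CPM against 18.2 to 25 CPM.

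Among the falls, Car6 (chr4:150187015-150201135), a secreted carbonic anhydrase, had 18.6, 16.4 and 28.8 CPM in basal samples and 1.31 and 3.84 CPM in Bic samples, a log2 fold change of -2.93 ± 0.50 with an adjusted p of 9.99e-05. The long noncoding RNA H19 (chr7:142575530-142578146) had 61.0, 226 and 162 CPM against 27.1 and 14.7 CPM (-2.87 ± 0.62). The basal samples of H19 differed from each other more than its Bic samples did, and its adjusted p was 0.0988 without Bic replicate 2. Bbc3 (chr7:16308398-16318334), which encodes the pro-apoptotic protein PUMA, had 29.2, 20.5 and 36 CPM in basal and 8.29 and 3.84 CPM in Bic samples (-2.29 ± 0.32). The uncharacterized RNA Gm19705 had 57, 40.9 and 80.0 CPM against 11.8 and 10.6 CPM (-2.41 ± 0.32), and Ccdc28a had 43.6, 45.0 and 43.6 CPM against 7.42 and 11.8 CPM (-2.15 ± 0.24). In each of these genes the groups did not overlap.

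The 12 largest falls also included Bnip5, Slc6a3, which encodes the dopamine transporter, Ttc33, Cavin2, a protein of caveolae, Tcp11l2 and Mak. Their log2 fold changes were between -1.99 and -1.62. Slc6a3 lost significance under 5 of 17 alternative settings, and Ttc33, Cavin2, Tcp11l2 and Mak under 1 each. Krt6a, Inhba, Pim1, Junb, H19, Ttc33 and Cavin2 overlap an annotated gene on the other strand. The counting is not stated to use strand, so reads of the 2 may be mixed. Whether an overlap reaches the counted 3′ end was not tested. Ttc33 and H19 also overlap a gene on their own strand, and Bnip5 was not found in the annotation used (GENCODE, GRCm38). Among the genes named further on, Jun, Atf3, Mafk, Mef2d, Dusp1, Irs2, Bdnf, Cdkn1a, Dusp8, Spry4, Crem, Sik2, Grin2c, Dlgap2, Kcnh1, Kcnh3, Kcnk1, Kcnk3, Actn1, Hes5, Id4, Hdac11, Atg2b, Gfap, Olig1, Krt10, Nefl, Nefm, Rbfox3, Mki67, Top2a, Ddit3, Hbp1, Penk, Sstr2 and Pcdh8 overlap a gene on the other strand as well.

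Among the AP-1 and ATF transcription factors, which bind DNA as pairs of leucine zipper proteins, 6 of 9 tested genes rose and 0 fell. With the letter as a covariate 6 passed, 5 of them higher. The median log2 fold change of this list was 0.86, against -0.01 over all genes. Over all genes tested 4.5% rose and 2.95% fell, and the counts of the lists below stand against the same shares. Fosb had 15.5, 17.9 and 18.2 CPM in basal and 159 and 178 CPM in Bic samples (3.30 ± 0.21). Fos, the partner of Jun in AP-1, had 37.5, 48.0 and 51.2 CPM against 261 and 267 CPM (2.54 ± 0.20), and Junb had 25.8, 23.4 and 30.3 CPM against 149 and 169 CPM (2.59 ± 0.21). In these genes the Bic samples were close to each other and far above the basal samples. Jun (0.86 ± 0.14) and Fosl2 (1.09 ± 0.18) rose less, and Atf3 rose by 0.62 ± 0.19 with an adjusted p of 0.0366 that was lost under 9 of 17 settings. Maff and Mafk, small Maf proteins, had log2 fold changes of -0.60 ± 0.35 and -0.68 ± 0.34 and did not pass.

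Of 22 EGR, NR4A and other early transcription factors tested, 14 rose and 0 fell, with a median log2 fold change of 1.11. With the letter as a covariate 10 rose. Egr4 had 34.4, 32.4 and 28.8 CPM in basal and 203 and 218 CPM in Bic samples (2.72 ± 0.17), and Egr3 had 13.2, 11.54 and 7.20 CPM against 85.6 and 96.7 CPM (3.07 ± 0.27). The orphan nuclear receptors Nr4a1 and Nr4a2 rose by 2.17 ± 0.20 and 2.27 ± 0.29 on the log2 scale. The third receptor of that family, Nr4a3, had 152, 126 and 162 CPM in basal and 205 and 214 CPM in Bic samples. Its groups did not overlap and its adjusted p was 0.00781, but its log2 fold change of 0.51 ± 0.13 was under the 1.5-fold threshold. Egr1 rose by 2.00 ± 0.19 and Ier2 by 2.22 ± 0.21, while Mef2d, a factor that is regulated by calcineurin, had 118, 118 and 122 CPM in basal and 127 and 117 CPM in Bic samples (0.03 ± 0.14).

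All 16 tested genes of a list of core activity-induced genes from other studies rose (14 with the letter as a covariate), with a median of 2.33. Irs2, an insulin receptor substrate, had 18.1, 19.7 and 18.2 CPM in basal and 39.3 and 50.9 CPM in Bic samples (1.28 ± 0.25). Its other genes, Arc and Btg2 among them, are also members of the other lists.

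Among 25 synaptic and secreted effectors, 17 rose (14 with the letter as a covariate) and 0 fell, with a median of 1.00. Bdnf, the neurotrophin that strengthens synapses, had 647, 797 and 413 CPM in basal and 1059 and 1516 CPM in Bic samples (1.06 ± 0.18, adjusted p 8.71e-05). Nptx2, a pentraxin that clusters AMPA receptors on interneurons, had 78.2, 147 and 80.7 CPM against 350 and 628 CPM (2.27 ± 0.21). Ptgs2, the inducible cyclooxygenase, had 54.2, 79.3 and 43.2 CPM against 238 and 408 CPM (2.46 ± 0.23). In each of these genes Bic replicate 2 was higher than Bic replicate 1, and both were above all basal samples. Rgs4 and Rgs2, which shorten G protein signals, rose by 0.84 ± 0.12 and 1.11 ± 0.15, and Per2, a clock gene, by 1.80 ± 0.28. Of the genes of this list whose products act in or fill secretory granules, Pcsk1, a prohormone convertase, rose from 47.6, 51.0 and 34.5 CPM to 84.2 and 93.8 CPM (1.00 ± 0.16). Vgf had 2549, 2771 and 2255 CPM in basal and 2165 and 2712 CPM in Bic samples, Scg2 had a log2 fold change of -0.20 ± 0.14, and neither passed.

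Homer1 encodes a long scaffold protein of the postsynapse and, from an earlier 3′ end, the short form Homer1a, which uncouples that scaffold. The short transcript ends at position 93360462 of chromosome 13 and a long one at 93403681 (GENCODE, GRCm38). The short end had 6, 5 and 2 counts in the basal samples and 15 and 10 in the Bic samples. As a share of the counts at both ends this was 0.946%, 0.954% and 0.377% in basal and 2.68% and 0.986% in Bic samples. The exact 95% interval (Clopper-Pearson, counting error only) was 0.348% to 2.05% in basal replicate 1, 1.51% to 4.39% in Bic replicate 1 and 0.474% to 1.81% in Bic replicate 2, so a difference in the use of this end was not detectable at this depth in Bic replicate 2. The gene as a whole, counted at its long end, had a log2 fold change of 0.55 ± 0.14 (adjusted p 0.00794), under the 1.5-fold threshold. The transcripts of Bdnf with counts of their own were nearly equal in each of the 5 samples, between 2397 and 2427 counts in Bic replicate 1, since they share 1 end. Those of Crem, whose short form ICER represses CREB targets, fell into a set with between 47 and 126 counts per sample and 1 transcript with 0 to 4 counts, and the gene did not pass (0.57 ± 0.22, adjusted p 0.0992).

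The inhibitors that switch MAPK signals off again rose in part: 7 of 16 tested genes passed and 0 fell, with a median of 0.69. Dusp1, a nuclear phosphatase of MAP kinases, had 39.8, 39.1 and 56.1 CPM in basal and 140 and 186 CPM in Bic samples (1.86 ± 0.18). Dusp6, the cytoplasmic phosphatase of ERK, rose by 1.32 ± 0.16, and Spry4, Dusp4, Spred2, Spry2 and Spred1 rose by between 0.66 and 1.5. Without Bic replicate 2 the count was 4, with the letter as a covariate it was 3, and Dusp4 was lost under 6 of 17 settings. Dusp8 had 258, 269 and 284 CPM in basal and 255 and 250 CPM in Bic samples. Of 9 growth arrest and mRNA turnover genes, 4 rose: Gadd45g, Btg2, Gadd45b (lost under 7 of 17 settings) and Cdkn1a (lost under 1). Btg2, an antiproliferative protein that recruits deadenylases, had 27.5, 37.6 and 42.1 CPM in basal and 179 and 194 CPM in Bic samples (2.40 ± 0.18). Of the CREB and SIK regulators, 1 of 16 tested genes, the kinase gene Sik2, rose (0.76 ± 0.16, lost under 2 of 17 settings), which is no result about the list when 4.5% of all genes rose, and Creb1 itself had a log2 fold change of 0.23 ± 0.18.

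The counts of the lists that follow stand against 7.45% of all genes called, 4.5% higher and 2.95% lower, and where 1 or 2 members passed the count is no result about the list. Of 12 tested GABA-A receptor subunits, the drug target, 1 fell and 0 rose by edgeR's quasi-likelihood test, with a median of 0.06. With DESeq2 or with RLE factors 2 subunits passed, and without either Bic replicate 0 did. The fall was Gabrq, the theta subunit, from 19.2, 14.5 and 19.7 CPM to 5.67 and 6.72 CPM (-1.51 ± 0.40, adjusted p 0.0115), and it was lost under 5 of 17 settings. Of 12 genes of GABA synthesis, transport and anchoring, 2 rose, among them Gad2, which makes GABA at terminals, from 375, 432 and 385 CPM to 599 and 633 CPM (0.63 ± 0.12). Of 21 glutamate receptor subunits, 2 rose, Grin2c (1.70 ± 0.37) and Grm3 (1.00 ± 0.31). Grm3 lost significance under 9 of 17 settings and Grin2c under 1.

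Of 21 postsynaptic scaffold and kinase genes, 4 rose: Camk2a (1.10 ± 0.26, lost without Bic replicate 2), Dlgap2, Dlgap3 and Nrgn (lost under 6 of 17 settings). Camk2a, the calcium-dependent kinase of plasticity, had 154, 211 and 156 CPM in basal and 278 and 461 CPM in Bic samples, and Dlg4, the scaffold PSD-95, had 131, 148 and 185 CPM against 142 and 167 CPM. Of 30 potassium channel genes, 5 rose (2 without basal replicate 1 or with the letter as a covariate), the largest of them Kcnv1, a silent subunit that modifies Kv2 channels, from 57.6, 70.0 and 50.4 CPM to 127 and 104 CPM (0.96 ± 0.17). The others were Kcnh3, Kcnh1, Kcnk3 and Kcnk1, with rises between 0.59 and 0.89, of which Kcnh1 was lost under 10, Kcnh3 under 7, Kcnk1 under 5 and Kcnk3 under 1 of 17 settings. Of 12 SRF-linked actin cytoskeleton genes, 5 rose: Ccn1, Cnn2 (1.54 ± 0.44, lost under 8 of 17 settings), Tagln2 (lost under 2), Actb and Actn1. The count was 3 without either Bic replicate. Actb, cytoplasmic actin, had 839, 1105 and 705 CPM in basal and 1173 and 2248 CPM in Bic samples. Its 2 Bic samples differed by more than the basal samples did, and it did not pass without Bic replicate 2.

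Among Notch-linked genes and ID factors, the ID proteins Id2 (1.06 ± 0.17), Id3 (1.37 ± 0.39) and Id4 (0.91 ± 0.27) rose. The Notch target Hes5 (-0.75 ± 0.24) fell, and so did Hes6 (-1.14 ± 0.32), a HES gene that inhibits Hes1. Hes5 was lost under 11, Hes6 and Id3 under 7 each and Id4 under 6 of 17 settings. In all, 5 of 11 tested genes passed. This count was between 1 and 5 over the alternatives, with 2 without basal replicate 1 or either Bic replicate and 3 without basal replicate 5, and only Id2 passed under all of them. Of 8 degradation and silencing genes that the study itself discusses as lower, 5 fell and 0 rose, with a median of -0.79. The study chose this list on these samples, so it is no independent evidence of direction. Ulk1, the kinase that starts autophagy, had 133, 135 and 158 CPM in basal and 89.0 and 86.8 CPM in Bic samples (-0.69 ± 0.14). It was the only 1 of the 5 that passed under all 17 settings. Stbd1 was lost under 10, Prss36 under 7, Hdac11 under 5 and Atg2b under 1. Of 11 heat shock chaperones, 2 rose, Hsph1 (0.62 ± 0.13) and Dnajb1 (0.74 ± 0.14).

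**Figure D3:**
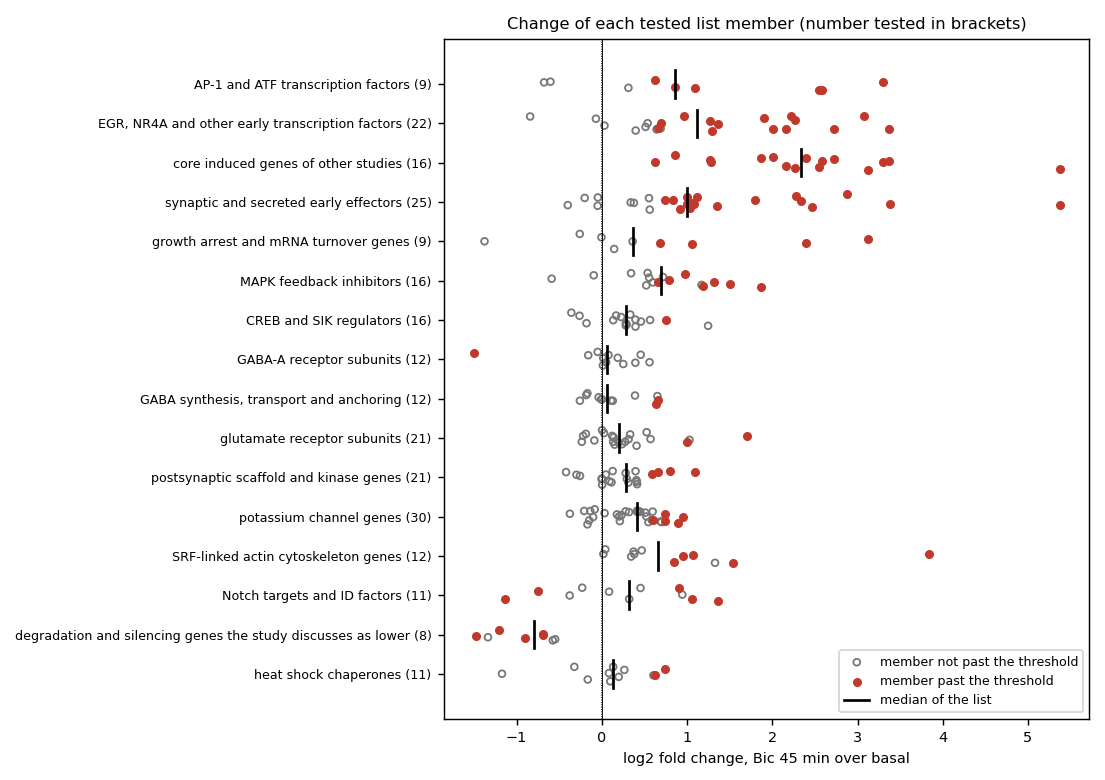
Log2 fold change after 45 min of Bic of each tested member of 16 gene lists; filled points passed the test, open points did not, and the bar is the median of a list. The core induced genes have the highest median, 2.33, while the GABA-A receptor subunits (0.06) and the GABA synthesis genes (0.05) are near the -0.01 of all genes.

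Markers of neurons and of glia moved with the comparison as well. The markers of the labelled cell type were present: the 10 neuron markers summed to between 9431 and 9868 CPM in basal samples and to 10760 and 10708 CPM in Bic samples, and 4 of 10 rose and 0 fell by edgeR's test (Nefm by 1.43 ± 0.19, Nefl by 1.22 ± 0.16, Rbfox3 and Tubb3). Rbfox3 was lost under 2 and Tubb3 under 6 of 17 settings. The 10 astrocyte markers summed to 3127, 3427 and 2775 CPM in basal and to 6126 and 5579 CPM in Bic samples, with no overlap. Of these, 7 of 10 rose and 0 fell (4 of 10 without basal replicate 5 or with the replicate block). Gfap, the intermediate filament of astrocytes, had 102, 195 and 83.0 CPM in basal and 536 and 345 CPM in Bic samples (1.80 ± 0.22), and Aldoc had 930, 950 and 840 CPM against 2108 and 1981 CPM (1.17 ± 0.14). The 10 markers of the oligodendrocyte lineage summed to 881, 1257 and 815 CPM in basal and to 1606 and 1382 CPM in Bic samples, and 4 of 9 tested ones rose, Olig1 the most (0.98 ± 0.19). In bulk RNA more cells of a type and more RNA per cell cannot be told apart, and the part of these markers in the other results was not tested.

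The sum of the astrocyte markers was 5105 and 4847 CPM after 15 min of Bic, 3647 and 3326 CPM after 180 min of Bic and 4524 and 4619 CPM after 45 min of KCl. The markers of excitatory neurons rose from between 2523 and 2673 CPM to 3385 and 3559 CPM in sum, with Nrgn up (0.59 ± 0.12) and Slc17a6, the vesicular glutamate transporter VGLUT2, down (-0.62 ± 0.19, lost under 8 of 17 settings). Of this list 0 genes passed without basal replicate 1, with the letter as a covariate or with summed transcripts, and 1 passed without basal replicate 2 or either Bic replicate. Those of inhibitory neurons went from between 4481 and 5423 CPM to 6279 and 6064 CPM, with 2 of 9 up, Gad2 and Vip, the latter lost under 9 of 17 settings. The microglia markers summed to between 7.16 and 9.30 CPM in basal and to 5.67 and 6.08 CPM in Bic samples, the endothelial and mural markers to at most 19.2 CPM in the 5 samples, and 0 of the 2 and 0 of the 1 tested genes of these lists passed by edgeR's test. The meningeal and choroid plexus markers summed to between 14.1 and 18.2 CPM in basal and to 32.3 and 24.3 CPM in Bic samples, and 0 of 2 tested genes passed in the main edgeR test, while 1 did by its likelihood ratio test and with no filter on low counts. Of these, Ttr had 0 CPM in each basal sample and 4.36 and 1.92 CPM in Bic samples.

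**Figure D4:**
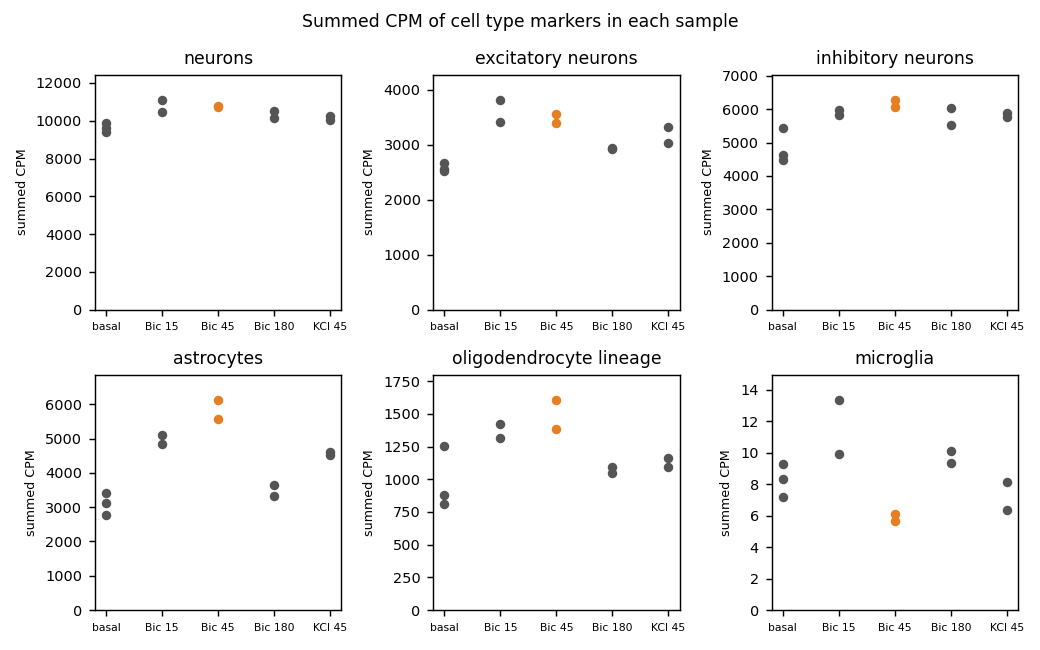
Summed CPM of the markers of 6 cell types in each sample of basal, Bic at 15, 45 and 180 min and KCl at 45 min, with each axis starting at 0. The astrocyte sum is 5579 and 6126 CPM in the samples with Bic for 45 min and between 2775 and 3427 CPM in basal samples, while the microglia sum is between 5.67 and 13.3 CPM.

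To ask how 45 min of Bic differed from an earlier time, the samples were compared directly with Bic for 15 min. At the same threshold 17 genes (0.141% of those tested) differed, 16 higher at 45 min (0.133%) and 1 lower (0.00831%). Arc had 363 and 243 CPM at 15 min, between the basal and the 45 min samples, and was higher at 45 min by 2.07 ± 0.18 on the log2 scale. Btg2 had 60.4 and 47.7 CPM at 15 min (difference 1.76 ± 0.21) and Arl4d 12.2 and 8.10 CPM (1.82 ± 0.34). Krt6a, Inhba and Nptx2 did not pass between 15 and 45 min: their differences were 0.24 ± 0.25, 0.32 ± 0.23 and -0.12 ± 0.22. Leaving out Bic 15 min replicate 3 took the count from 17 to 10, and leaving out Bic 45 min replicate 2 took it to 11.

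Against Bic for 180 min, 366 genes (3.04%) differed, 220 higher at 45 min (1.83%) and 146 lower (1.21%). Ccn1 was back at 4.58 and 8.26 CPM after 180 min (difference 3.18 ± 0.36), Krt6a at 43.4 and 39.7 CPM (2.58 ± 0.27) and Arc at 308 and 258 CPM (2.18 ± 0.17). Other genes did not pass between 180 and 45 min: Npas4 had 647 and 566 CPM (difference 0.24 ± 0.15), Egr4 211 and 212 CPM (-0.01 ± 0.17) and Fosb 188 and 159 CPM (-0.04 ± 0.20). Atf3, a stress-induced factor, had 38.1, 59.9 and 47.4 CPM in basal, 71.6 and 76.5 CPM at 45 min and 309 and 258 CPM at 180 min (difference -1.93 ± 0.20). Among the falls, Bbc3 after 180 min had 20.8 and 25.9 CPM (difference -2.0 ± 0.35) and Gm19705 51.3 and 53.6 CPM (-2.23 ± 0.34). The samples at 180 min all have the letter A. With the letter as a covariate 109 genes differed, without Bic 180 min replicates 2 and 3 in turn 121 and 54 did, and without Bic 45 min replicates 1 and 2 in turn 162 and 157 did.

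**Figure D5:**
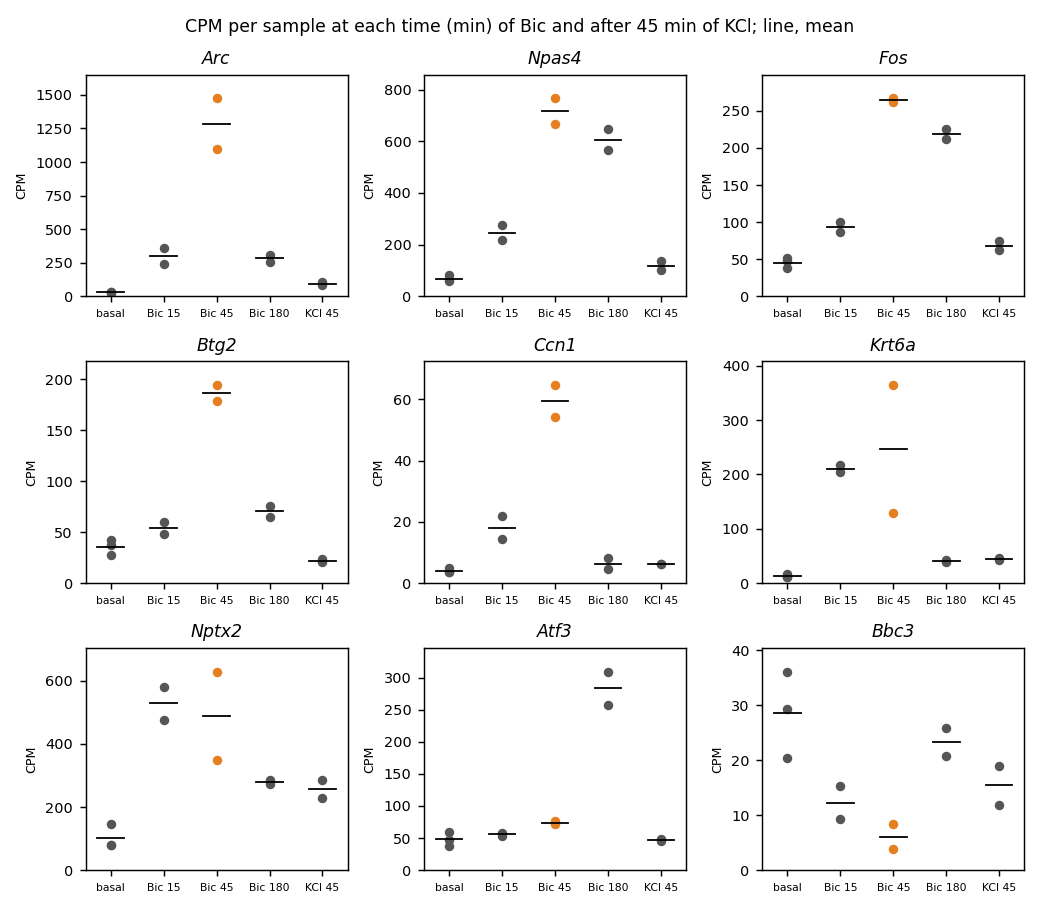
CPM of 9 genes in each sample of basal, Bic at 15, 45 and 180 min and KCl at 45 min; lines are group means and each axis starts at 0. Arc, Btg2 and Ccn1 are highest at 45 min of Bic, Npas4 and Fos are nearly as high at 180 min, Atf3 is highest at 180 min (258 and 309 CPM), and Bbc3 is lowest at 45 min (3.84 and 8.29 CPM).

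To ask how synaptic drive differs from direct depolarization at 45 min, Bic was compared with KCl at that time only. In this comparison 82 genes (0.682%) differed, 60 higher with Bic (0.499%) and 22 lower (0.183%). Arc had 81.2 and 108 CPM with KCl and was 3.77 ± 0.19 higher with Bic on the log2 scale. Ccn1 had 6.30 and 6.35 CPM with KCl (difference 3.22 ± 0.38). Btg2 had 24.1 and 20.3 CPM with KCl, below all basal samples, and was 3.06 ± 0.22 higher with Bic. The genes that were lower with Bic were led by Gm19705 (-1.73 ± 0.35), Ppp1r13l (-1.30 ± 0.24), which encodes the p53 inhibitor iASPP, and Ptger3 (-1.15 ± 0.29), a prostaglandin E2 receptor. Ptger3 had 57.6, 59.2 and 60.3 CPM in basal, 25.3 and 20.5 CPM with Bic and 47.1 and 54.2 CPM with KCl. The count was 25 without KCl replicate 1, 39 without KCl replicate 2 and 30 without Bic replicate 2. The study reports an earlier peak in the number of changed genes with KCl than with Bic. KCl for 15 min was not compared with Bic here. The keratinocyte markers, Krt6a among them, summed to 444 and 472 CPM after 15 min of KCl and to 50.4 and 55.0 CPM after 45 min. Their sum was 141 and 388 CPM after 45 min of Bic. Whether the differences of Arc, Ccn1 and Btg2 reflect the timing or the strength of the response to KCl was not tested.

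Set side by side, the comparisons of Bic for 15 min, Bic for 180 min and KCl for 45 min with basal share the 3 basal samples with the comparison at 45 min. After 15 min of Bic 3.42% of genes passed (2.4% higher, 1.01% lower), and the log2 fold changes over basal were 3.31 ± 0.18 for Arc, 1.84 ± 0.15 for Npas4 and -1.33 ± 0.31 for Bbc3. After 180 min of Bic 0.765% passed (0.69% higher, 0.0748% lower), and they were 3.19 ± 0.17 for Arc, 3.13 ± 0.15 for Npas4 and -0.29 ± 0.25, which did not pass, for Bbc3. After 45 min of KCl 0.765% passed (0.607% higher, 0.158% lower), and they were 1.61 ± 0.19 for Arc, 0.77 ± 0.16 for Npas4 and -0.88 ± 0.27, which did not pass, for Bbc3.

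TTXw has a control of its own, the silenced samples, so its response is measured on other samples. At 45 min 46 genes passed for TTXw against basal TTX (0.382%; 0.349% higher and 0.0333% lower), and 20 of these were DEG of Bic, that is 43.5% of the TTXw genes and 2.23% of the 896 Bic genes. Of the 20, 18 changed in the same direction. Among the 541 rises with Bic, 64.9% had a log2 fold change above 0 after TTXw, against 49.4% of all genes. Among the 355 falls, 56.3% were below 0, against 50.6% of all genes. The difference between the 2 responses was tested as an interaction, and 214 genes (1.78%) passed, 120 in the direction of a larger value with Bic (0.998%) and 94 in the other (0.782%).

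Arc rose by 1.91 ± 0.23 after TTXw, from between 10.8 and 13.9 CPM to 45.4 and 49.1 CPM, and its response to Bic was larger by 3.46 ± 0.31. Krt6a was at 1.43 to 5.23 CPM in basal TTX and 2.36 and 2.41 CPM after TTXw, and its response to Bic was larger by 4.50 ± 0.85. Inhba was at 1.43 to 4.70 CPM in basal TTX and 2.41 and 4.12 CPM after TTXw, with a response to Bic larger by 2.83 ± 0.69. In both genes the response to TTXw rests on few counts. Fos went the other way: it rose by 4.15 ± 0.24 after TTXw and by 2.54 ± 0.20 with Bic, a difference of -1.61 ± 0.33 with an adjusted p of 0.00563. The level of Fos was lower after TTXw, at 134 and 191 CPM against 261 and 267 CPM with Bic. Its control was lower too, at 5.42 to 19.2 CPM in basal TTX against 37.5 to 51.2 CPM in basal samples. Fosb and Btg2 rose with both stimuli, and their differences were -0.28 ± 0.39 and -0.12 ± 0.28. Cavin2, with 9.31, 9.29, 12.2 and 4.34 CPM in basal TTX and 13.5 and 13.0 CPM after TTXw, had a response 2.48 ± 0.48 lower with Bic. Stambpl1, a deubiquitinase, had one that was 2.51 ± 0.55 lower. The response of Gm19705 was lower by 2.61 ± 0.60, but its TTXw samples had 0.589 CPM (replicate 1) and 13.0 CPM (replicate 3), and with replicate 3 left out the difference was 0.94 in the other direction (adjusted p 0.794). All samples with TTX, TTXw and basal TTX alike, have the letter A and had been silenced for 48 h. Neither therefore differs within the response to TTXw. Within the response to Bic the letter does differ: both Bic samples and basal replicate 5 have B, basal replicates 1 and 2 have A. In the difference between the responses, the silencing and the stimulus cannot be told apart. The letter can be set apart from them only through basal replicate 5, the 1 basal sample with B. With the letter as a covariate 189 genes passed, 106 of them in the direction of a larger value with Bic. Without Bic 45 min replicate 2 the count was 82, without TTXw replicate 3 it was 83, without TTXw replicate 1 109, without basal replicate 1 138 and without basal replicate 5 121.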

How the data were processed

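CEL-Seq2 libraries were sequenced from 3′ ends. The deposited values were raw whole-number counts per RefSeq transcript, which the authors made with STAR on mm10 and ESAT (the End Sequence Analysis Toolkit). Versions, annotation release, use of strand and collapsing of molecular identifiers were not given in the sources used here. Of 96722 transcripts, 78229 (80.9%) were matched by accession to a symbol of RefSeq on GRCm38.p6, giving 28216 genes, and the unmatched ones, with 19.2% of counts, were left out of library sizes and tests. The transcript with the most counts represented a gene. Counts on genes were between 1177500 and 3909487 over the 27 samples of the stimuli experiment.

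A gene was tested if 2 or more samples exceeded 5 CPM (counts per 1000000 counts). TMM factors were used, and all 27 samples were fitted together, a group per condition, with edgeR 4.0.16 in R 4.3.3 (quasi-likelihood test, Benjamini-Hochberg adjustment over 12027 genes). The SE is the absolute log2 fold change divided by the square root of F. Replicates of basal and Bic 45 min differed from each other by more than sampling noise (chi-square per degree of freedom 2.61 to 3.72). Of the DEG, 11 had counts within 2 of another gene on the same strand in each of the 5 samples. Named genes were the 12 largest rises and falls among DEG with a mean of at least 10 CPM and no overlap of groups, members of 16 functional and 9 marker lists, the 3 largest differences per direction in the other comparisons, and the transcripts of Homer1, Bdnf and Crem. The members and lists were chosen with earlier results of these data known. Basal replicate 5 is numbered 2 in its description. Same-numbered samples deviated together with r of 0.0417 and 0.104 over 5192 genes, and with only 2 shared numbers the replicate numbers were not taken as a pairing. Alternatives were edgeR's likelihood ratio test, DESeq2 1.42.0, RLE factors, other filters, thinned counts, other sets of samples, the replicate block, the letter as a covariate, summed transcripts and leaving out each replicate. The fits were tested on simulated data. Some genes that the rules name are not reported here.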

Additional observations from a re-analysis of the deposited data

Results flagged for a closer look

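The differences below were flagged because the effect of 45 min of Bic and that of another time or stimulus differed in a direct test, in edgeR. The counts were 17 genes against Bic for 15 min, 366 against Bic for 180 min, 82 against KCl for 45 min and 214 for the difference from the response to TTXw.

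On the log2 scale, the differences from 15 min were 2.07 for Arc, 1.82 for Arl4d and 1.76 for Btg2. Those from 180 min were 3.18 for Ccn1, 2.58 for Krt6a, 2.18 for Arc, -2.23 for Gm19705, -2.0 for Bbc3 and -1.93 for Atf3. Those from KCl were 3.77 for Arc, 3.22 for Ccn1, 3.06 for Btg2, -1.73 for Gm19705, -1.30 for Ppp1r13l and -1.15 for Ptger3. Those from the TTXw response were 4.50 for Krt6a, 3.46 for Arc, 2.83 for Inhba, -2.61 for Gm19705, -2.51 for Stambpl1 and -2.48 for Cavin2. Stambpl1 itself did not pass against basal (-1.08 ± 0.39, adjusted p 0.0795), where its groups overlapped: basal samples had 28.9, 10.4 and 15.2 CPM and Bic samples 10.5 and 7.36 CPM.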

How the results depend on the processing

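Against basal, 896 genes passed, and 589 did with counts thinned to the smallest library, 585 with the replicate block, 572 with basal replicate 5 as the only control (chosen after seeing the data) and between 393 and 892 with 1 replicate left out. Against 15 min of Bic the 17 became 29 with the likelihood ratio test, 45 with no filter, 30 in a fit of basal, Bic and KCl samples, 10 with summed transcripts and 10 to 22 with 1 replicate left out. Against 180 min the 366 became 569 with the likelihood ratio test, 148 thinned, 627 in a fit of the compared groups, 586 in that of basal, Bic and KCl samples, 109 with the letter as a covariate, 214 with summed transcripts and 54 to 162 with 1 replicate left out. Against KCl the 82 became 144 with the likelihood ratio test, 140 with no filter, 54 thinned, 138 in the fit of basal, Bic and KCl samples, 38 with summed transcripts and 25 to 92 with 1 replicate left out. For the difference from TTXw the 214 became 325 with the likelihood ratio test, 117 thinned, 55 with the replicate block, 128 with summed transcripts and 82 to 239 with 1 replicate left out. The replicate block gave 15, 313 and 86 genes in the other 3 comparisons, and the numbers showed no pairing. The letter as a covariate gave 611 genes against basal and 189 for the difference from TTXw. Thinning leaves fewer counts and leaving out a replicate fewer samples; for the other settings the cause was not tested. The 12 largest rises and 12 largest falls kept their direction in 408 of 408 repeats over 17 settings, and 15 of these, all of falls, missed the threshold. The largest rises and falls were chosen for groups that did not overlap, so their direction was largely fixed by the choice. The difference of Gm19705 from TTXw was -3.41 without TTXw replicate 1 and 0.94 without TTXw replicate 3. Counts of lists moved too, from 7 to between 3 and 8 for MAPK inhibitors and from 5 to between 1 and 6 for the degradation list. With 2 samples per stimulus, the p-values rest on a spread shared over all 27 samples.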

Other observations

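The genes named here were chosen after their values were seen, from no list, and stand for no group. Mki67, a proliferation marker, had 10.03, 11.54 and 8.34 CPM in basal and 29.2 and 27.9 CPM in Bic samples (1.51 ± 0.30). Top2a, Rrm2, Aspm and Ccnb1 rose by 1.49 ± 0.29, 1.38 ± 0.28, 1.48 ± 0.39 and 1.25 ± 0.34, and Aspm and Ccnb1 were lost under 5 of 17 settings each. The summed markers of astrocytes and of the oligodendrocyte lineage were higher in the same 2 samples, and their part in these values was not tested. Lower with Bic were Pmaip1, which encodes the pro-apoptotic protein NOXA (-2.0 ± 0.41), Ddit3, which encodes the stress factor CHOP (-1.04 ± 0.23), Arrdc4 (-1.59 ± 0.24), Klhl24 (-1.22 ± 0.18) and Hbp1 (-1.0 ± 0.15). Arrdc4 had 86.0, 77.8 and 77.7 CPM in basal and 25.8 and 27.5 CPM in Bic samples.

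Chosen in the same way, Bmp2, a secreted ligand, had 16.3, 13.0 and 16.7 CPM in basal and 52.4 and 75.9 CPM in Bic samples (2.07 ± 0.22), and Smad7, an inhibitor of TGF-beta signals, rose by 2.21 ± 0.36. The kinase gene Sgk1 rose by 1.60 ± 0.17, the pseudokinase gene Trib1 by 2.00 ± 0.28 and the protocadherin gene Pcdh8 by 1.69 ± 0.18. The opioid precursors Pdyn and Penk rose by 1.41 ± 0.36 (lost under 6 of 17 settings) and 1.09 ± 0.20 (lost under 1) and the somatostatin receptor Sstr2 by 1.81 ± 0.25. Gabbr2, a subunit of the GABA-B receptor, passed at 1.89 ± 0.46 and was lost under 5 of 17 settings, and its Bic samples had 10.9 and 46.1 CPM and basal replicate 2 had 11.9 CPM, so the groups overlapped. Gabbr1, the other subunit, had a log2 fold change of 0.10 ± 0.12.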
